A study of Homo sapiens with 5 samples.

Results

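The transcripts described here are those of the epidermal growth factor (EGF) receptor family in MCF10A cells. They comprise 3 receptors (EGFR, ERBB2 and ERBB3), 5 ligands (AREG, EREG, HBEGF, TGFA and BTC) and ERRFI1, an intracellular inhibitor of the receptors. They were chosen by gene, with earlier results of these data known, and make up 9 of the 56632 genes in the tables. Of these 9, 8 were among the 11764 genes whose FPKM averaged at least 1 across the libraries, called analysed genes here. The exception was BTC, with a mean FPKM of 0.556. FPKM is a read count scaled by transcript length and by the total of the library.

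MCF10A is an established, non-tumorigenic line of human mammary epithelial cells. Per the labels the cells were untreated and were grown in 5% horse serum with EGF at 20 ng/ml, insulin at 10 µg/ml, cholera toxin at 100 ng/ml and hydrocortisone at 500 ng/ml, so every library comes from cells that were given an EGF receptor ligand. RNA immunoprecipitation and sequencing (RIPseq) recovers the RNA that comes down with a protein and sets it against input RNA that was not precipitated. The question was which mRNAs associate with CBFB, the non-DNA-binding partner of RUNX1, and with hnRNPK, which binds RNA with a preference for C-rich stretches. From MCF10A cells expressing FLAG-CBFB there was 1 input and 1 RIP with a FLAG antibody. From parental MCF10A cells there was 1 input and 2 RIP repeats with an hnRNPK antibody. The labels do not say whether the FLAG-CBFB cells kept their own CBFB, how FLAG-CBFB was driven, whether the line is 1 clone, or whether the hnRNPK repeats came from separate cultures. P-values below for both repeats against the parental input therefore draw only on the spread between these repeats, which may be technical. The tests pool that spread over genes, so a gene's p-value is not a measure of its own repeatability alone. Fits with both inputs as 1 group also draw on the difference between the inputs of the FLAG-CBFB and parental cells. Where such a fit leaves out a repeat, that difference is its only source of spread. No mock immunoprecipitation was analysed here.

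EGFR, ERBB2 and ERBB3 are receptor tyrosine kinases that pair at the cell surface. ERBB2 binds no known ligand of its own, and ERBB3 has little kinase activity and signals through its partners. AREG, EREG, HBEGF, TGFA and BTC are made as membrane-bound precursors and released by proteases, after which they bind EGFR, and some of them also ERBB4. ERRFI1, also called MIG6, is induced by receptor signalling, blocks the kinase and promotes receptor turnover. Mammary epithelial cells use amphiregulin, the product of AREG, in ductal growth, and MCF10A cells depend on EGF in culture.

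The genes lie apart in the genome except for a ligand cluster on chromosome 4. On GRCh38 (GENCODE 29), EREG spans chr4:74365143-74388751 and AREG chr4:74445134-74455009 on the plus strand, and BTC spans chr4:74744759-74794686 on the minus strand. The receptors are at chr7:55019021-55211628 (EGFR), chr17:39687914-39730426 (ERBB2) and chr12:56076799-56103505 (ERBB3), all on the plus strand. HBEGF (chr5:140332843-140346631), TGFA (chr2:70447280-70554193) and ERRFI1 (chr1:8004404-8026308) are on the minus strand. The tables hold no coordinates, and the submitters' processing notes name hg19. Positions and letters are therefore those of the annotation and were not read from these libraries.

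Because hnRNPK prefers C-rich RNA, the C-richest 30-base window of a member's longest protein-coding transcript is shown for the 4 members that differed between hnRNPK RIP and input, and for ERBB2 as the receptor that did not. Runs of at least 4 C are in capitals. The windows of EGFR, ERBB3 and AREG are in the 5′ UTR and those of ERRFI1 and ERBB2 in the coding sequence. They lie at chr7:55019180-55019209, chr12:56080111-56080140, chr4:74445192-74445221, chr1:8014166-8014195 and chr17:39727883-39727912 in that order, and each is printed 5′ to 3′ on the strand of the mRNA.
EGFR: CCCCgcctcgccgccaacgccacaaccacc
ERBB3: cacacacaCCCCtCCCCtgccatccctccc
AREG: ccgcgcccgccgCCCCgagctCCCCaagcc
ERRFI1: actCCCCttcccttttCCCCtgtgCCCCtc
ERBB2: gctgCCCCtcagCCCCaccctcctcctgcc

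Such windows are common. The median C-richest window over 10529 analysed genes with a protein-coding transcript held 18 C, against 19 in the windows of EGFR, AREG and ERBB2, 20 in that of ERBB3 and 17 in that of ERRFI1. At least 1 run of 4 C was present in 98.5% of those transcripts. EGFR, whose transcript of 9821 nt was the longest of the family, held 40 runs or 4.07 per kb, near the median of 3.47. ERBB2 also held 40 runs, in 4792 nt, and at 8.35 per kb was the richest member, above 85.7% of genes. ERBB3 had 5.58 runs per kb, AREG 5.65 and ERRFI1 3.54. EREG was the poorest at 0.649 per kb, with BTC at 1.42, TGFA at 3.48 and HBEGF at 3.77. The searched letters are CCCC on the mRNA strand only, and a match is a description, not a binding site.

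The libraries held 69786576 to 106855647 expected counts. Mitochondrial genes took 4.27% and 11.2% of input counts, 62.2% of FLAG-CBFB RIP counts, and 84.5% and 86.6% of those of the hnRNPK RIPs, which left 12147530 to 34365672 counts for all other genes in a RIP. Most nuclear genes had a lower FPKM after precipitation. With FLAG-CBFB the median analysed gene kept 0.286 of its input FPKM, and with hnRNPK 0.0608 and 0.0545. Each ratio below is read against these medians. Markers of basal mammary epithelium summed to 2798 and 3099 FPKM in the inputs over 7 genes, KRT5 leading with 1640 and 1974, but KRT14 was low at 1.81 and 6.78. Markers of luminal hormone-receptor cells, leukocytes, fibroblasts and liver cells summed to 1.93 and 2.51 FPKM over 4 genes, with PTPRC and ALB at or near 0.

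In the inputs AREG was the most abundant family transcript and BTC the least. AREG was at 189 FPKM in the FLAG-CBFB cell input and 136 in the parental input. ERRFI1 followed at 81.5 and 64.3, then EGFR at 56.8 and 32.9, ERBB2 at 32.6 and 22, and HBEGF at 21.1 and 19.4. TGFA was at 11.1 and 7.95, ERBB3 at 10.5 and 9.92, and BTC at 1.25 and 0.9. The order was the same in both inputs except for EREG, which came sixth with 15.8 FPKM in the FLAG-CBFB cells and eighth with 2.14 in parental cells, and for TGFA and ERBB3, which are close to each other and changed places. With 1 library per input, neighbours in this order have no replicate spread to be judged by.

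**Figure D1:**
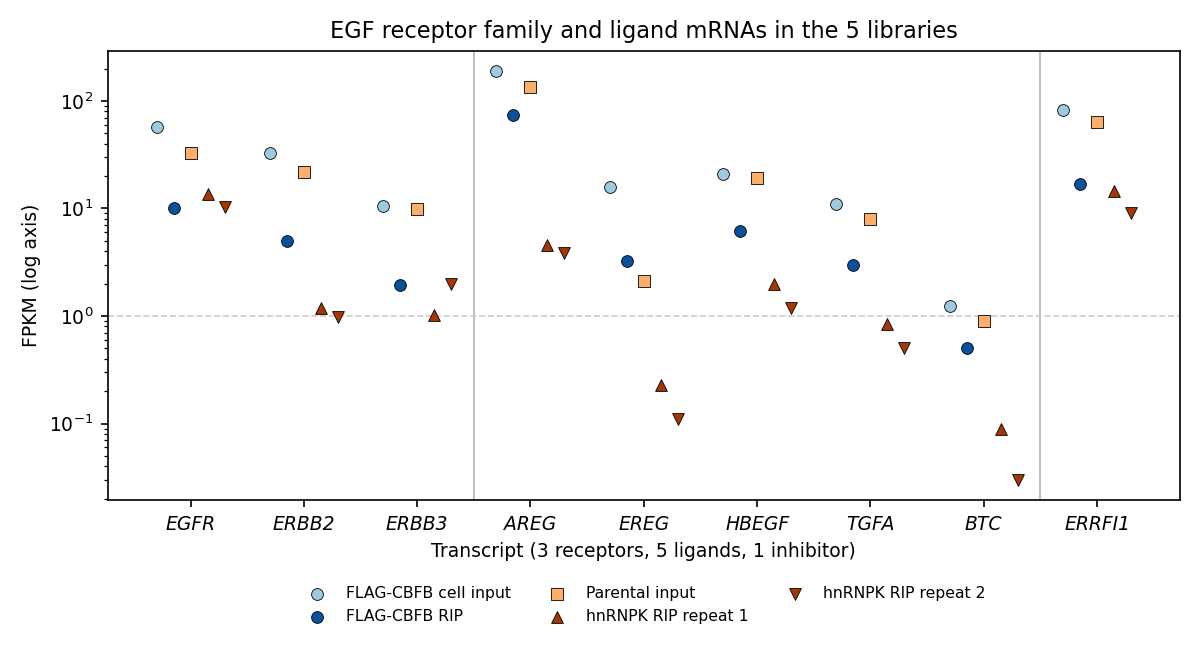
FPKM of each transcript (log axis) in the 5 libraries, with receptors at the left, ligands in the middle and the inhibitor ERRFI1 at the right. Each point is 1 library, and the dashed line is an FPKM of 1. AREG is the highest point in both inputs and in the FLAG-CBFB RIP, and lies below EGFR and ERRFI1 in both hnRNPK RIPs.

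EREG, which encodes epiregulin, was the member that differed most between the cells before any precipitation. It had 7230 counts in the FLAG-CBFB cell input and 610 in the parental input, an FPKM ratio of 7.41. On the centred log2 scale defined below the difference was 2.45, with a 95% counting error of 0.12, and EREG was the 1 member beyond 2. Of all analysed genes 0.519% were above 2 and 0.816% below -2 between the inputs. The other 8 members had ratios of 1.06 (ERBB3) to 1.73 (EGFR), all higher in the FLAG-CBFB cells, and the median analysed gene 0.979. FLAG-CBFB expression, any other difference between the FLAG-CBFB and parental lines, and the library cannot be told apart in this comparison. No test was run on it.

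In the FLAG-CBFB RIP, receptor transcripts kept less of their input level than the median gene did. EGFR went from 56.8 FPKM in the input to 10.1 in the RIP, a ratio of 0.178. ERBB2 went from 32.6 to 4.95, a ratio of 0.152, and ERBB3 from 10.5 to 1.93, a ratio of 0.184. ERRFI1 went from 81.5 to 16.8, or 0.206. All 4 lay under the median ratio of 0.286. Ligand transcripts spread around that median. AREG went from 189 to 74.2 FPKM, a ratio of 0.392, HBEGF from 21.1 to 6.14 (0.291), TGFA from 11.1 to 2.98 (0.268) and EREG from 15.8 to 3.22 (0.203). BTC, with 310 and 103 counts, had a ratio of 0.408.

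Enrichment is the difference in log2(FPKM + 1) between a RIP and the input of the same cells, centred on the mean over analysed genes. That mean was -1.34 for the FLAG-CBFB RIP, and a transcript is called above 2, that is 4-fold. The study also used 4-fold, but on log2 of an adjusted FPKM + 1, and that adjustment may differ from the centring. It called more transcripts bound by each protein than lie above 2 here, so these calls are not those of the study. The log2(FPKM + 1) scale understates the fall of weak genes, and centring then lifts them. No member was above 2 or below -2 in the FLAG-CBFB RIP, where 4.37% of analysed genes were above 2 and 0.0935% below -2. ERBB2 had the lowest CBFB enrichment at -1.16, with a 95% counting error of 0.07, followed by EGFR at -1.04 with an error of 0.03. These stood at percentiles 1.8 and 3.3 of analysed genes. ERRFI1 was at -0.87 (percentile 6.6), EREG at -0.66 and ERBB3 at -0.63. HBEGF, TGFA and AREG were at -0.29, -0.27 and 0.00. BTC was at 0.76, but the lowest value its input level allowed was 0.17. The median of the 9 was -0.63, against -0.19 for all analysed genes. With the parental input in place of the FLAG-CBFB cell input EGFR moved to -0.24, near the median gene at -0.17, ERBB2 to -0.58, ERRFI1 to -0.51 and EREG to 1.80. The size of these values, and for EREG the sign, thus depends on the input used. For comparison RUNX1, the transcript the study began with, was at 2.13 and GAPDH at -0.18. No test was run with 1 library per arm, and counting errors leave out all variation between immunoprecipitations.

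Members separated more widely in the hnRNPK RIPs. EGFR had 32.9 FPKM in the parental input against 13.7 and 10.4 in the RIPs. It therefore kept 0.416 and 0.315 of its input level, several times the median shares of 0.0608 and 0.0545. AREG had 136 FPKM in the input and only 4.55 and 3.88 in the RIPs, shares of 0.0334 and 0.0285, below the median gene. AREG was thus above EGFR in the input and below it in both RIPs.

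The expected counts behind EGFR were 21172 in the input, 13376 in repeat 1 and 8902 in repeat 2. With edgeR's quasi-likelihood test, which used both repeats against the parental input and adjusted over the 17000 genes tested, EGFR was higher in the RIP by 2.37 on the log2 scale, with an SE of 0.37 and an adjusted p of 1.8e-09. The input was 1 library, so the test had 1 residual degree of freedom, from the repeats, and held no spread between inputs. The fold change is relative to TMM scaling, under which the median analysed gene was at -0.28. EGFR also passed the test against both inputs as 1 group (log2 fold change 1.85, edgeR adjusted p = 0.0045) and without either repeat, with adjusted p-values of 0.02 and 0.0082 by edgeR when both inputs were used. It was positive on the centred scale as well, at 1.40 and 1.10 in the repeats. That sign holds relative to the average gene only, since every member had a lower FPKM in the hnRNPK RIPs than in the input, and EGFR is at -1.39 with no centring.

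ERBB3 and ERRFI1 were the other members higher in the hnRNPK RIP. ERBB3 had 9.92 FPKM in the input and 1.02 and 2 in the RIPs, from 2024, 421 and 578 counts, shares of 0.103 and 0.202. Its repeats differed more than those of the other receptors. The edgeR log2 fold change of ERBB3 was 1.34 (SE 0.38, adjusted p = 0.0021). That SE draws on spread pooled over genes, and was close to the 0.35 of ERBB2, whose repeats differed less. ERRFI1 had 64.3 FPKM in the input and 14.6 and 9.04 in the RIPs, from 12425, 4238 and 2346 counts, shares of 0.227 and 0.141. Both RIPs lay above the median share. Its edgeR log2 fold change was 1.37 (SE 0.36, adjusted p = 0.00087). Neither call held when 1 repeat was left out. In fits that took both inputs as 1 group, ERBB3 was at 1.51 without repeat 1 (edgeR adjusted p = 0.051) and at 0.69 without repeat 2 (adjusted p = 0.38). ERRFI1 was at 0.85 and 1.35, with edgeR adjusted p-values of 0.25 and 0.063.

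ERBB2 was not on the higher side. It had 22 FPKM in the parental input against 1.18 and 0.99 after precipitation, from 6045, 405 and 319 counts. Its shares of 0.0536 and 0.045 lay just under the median gene in both repeats. The edgeR log2 fold change was -0.75 (SE 0.35, adjusted p = 0.083), so ERBB2 was not called. It was called lower against both inputs as 1 group, at -1.06 with an edgeR adjusted p of 0.032, and with no filter on low counts, at -0.97 with an edgeR adjusted p of 0.026.

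AREG was the 1 ligand called. Its counts were 10249 in the input and 498 and 372 in the RIPs, and its edgeR log2 fold change was -1.25 (SE 0.35, adjusted p = 0.0016). Without repeat 1 or repeat 2, in the fits with both inputs, the values were -1.57 and -1.51 with edgeR adjusted p-values of 0.062 and 0.068. HBEGF had 19.4 FPKM in the input and 1.99 and 1.2 in the RIPs, with an edgeR log2 fold change of 0.15 (SE 0.37, adjusted p = 0.79). TGFA had 7.95, 0.84 and 0.5, with 0.31 (SE 0.38, adjusted p = 0.56). EREG had 2.14, 0.23 and 0.11, with 0.15 (SE 0.48, adjusted p = 0.85). BTC, whose product is betacellulin, had 96 counts in the input and 20 and 5 in the RIPs, and a log2 fold change of 0.31 (SE 0.83, adjusted p = 0.81). For these 4 ligands the fitted difference was smaller than its SE, and for BTC the depth left a wide error. Against both inputs as 1 group EREG was at -2.02 (edgeR adjusted p = 0.084).

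**Figure D2:**
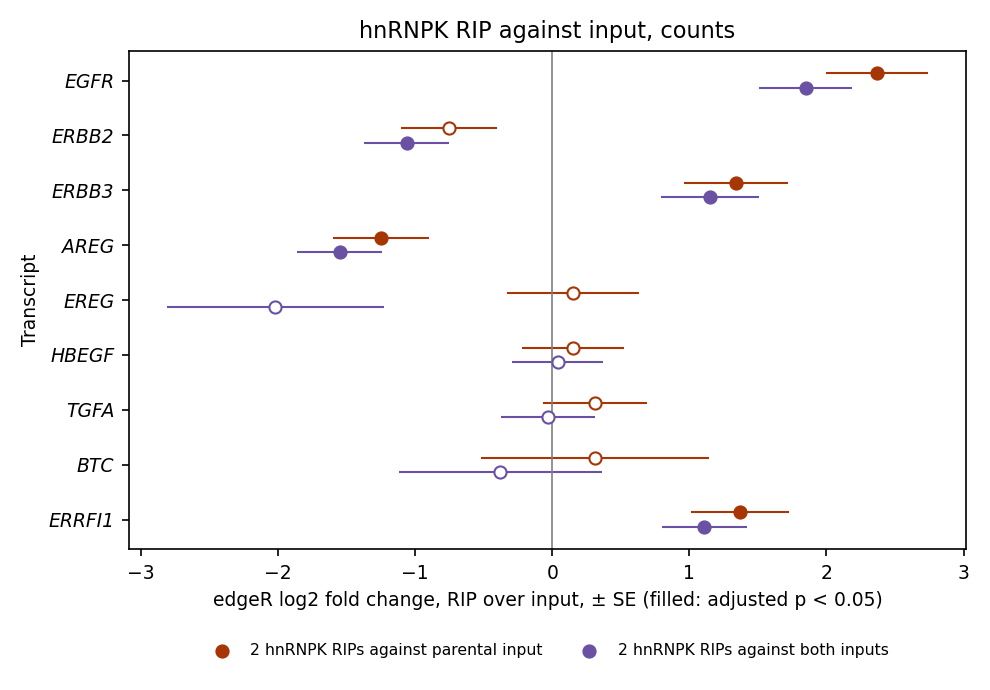
Log2 fold change of hnRNPK RIP over input from edgeR with its SE as bars, for the 2 RIPs against the parental input and against both inputs as 1 group. Filled points have an adjusted p under 0.05. EGFR, ERBB3 and ERRFI1 are filled at the right of 0 and AREG at the left in both fits, ERBB2 is filled in the fit with both inputs only, and EREG moves from 0.15 to -2.02.

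Of the 9 members 3 were thus higher in the hnRNPK RIP, 1 was lower and 5 were not called by edgeR. Over the 17000 genes tested 21.7% were higher and 15.2% lower, so a count of this size is not particular to the family. The receptors EGFR and ERBB3 and the inhibitor ERRFI1 were on the higher side, and no ligand was. DESeq2 made the same 4 calls.

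On the centred log2(FPKM + 1) scale no member exceeded 2 in the hnRNPK RIPs and 1 was below -2, against 8.2% and 6.24% of analysed genes. That member was AREG, at -2.08 ± 0.08 (SD, n = 2), and it crossed the threshold narrowly. EGFR was at 1.25 ± 0.21, ERBB3 at 0.49 ± 0.45, ERRFI1 at 0.26 ± 0.40 and ERBB2 at -0.82 ± 0.04. HBEGF was at -0.35 ± 0.26 and TGFA at 0.21 ± 0.16. The SDs of ERBB3 and ERRFI1 were as large as their means or nearly so, and those of all members leave out input error because the repeats share 1 input. EREG at 1.22 ± 0.06 and BTC at 1.80 ± 0.01 cannot be read as enrichment. Their input levels were so low that the smallest value the scale allowed was 0.99 for EREG and 1.72 for BTC, and with counts and TMM scaling they were at -0.06 and -0.08. With TMM scaling EGFR was at 2.21, past the 4-fold threshold, and AREG at -1.41, inside it. Rescaling FPKM without mitochondrial genes gave 2.08 and -1.42 for these, and 1.08 for ERRFI1. With the FLAG-CBFB cell input in place of the parental input EGFR was at 0.45, ERBB3 at 0.39 and ERRFI1 at -0.11. AREG was at -2.58 there and EREG at -1.24, with the median analysed gene at -0.17. The size of these values, and for EREG and ERRFI1 the sign, thus depends on the input used.

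RSEM gives a mean transcript length weighted by isoform abundance. That of EGFR was between 9392 and 9681 nt in all 5 libraries, that of ERRFI1 between 2929 and 3038 nt, and that of AREG between 1230 and 1239 nt. ERBB3 varied most among the called members, from 3085 nt in parental input to 4161 and 3368 nt in the hnRNPK RIPs, so its FPKM and its counts do not move in step. BTC went from 1683 nt in parental input to 2406 and 2157 nt in the RIPs on few counts. Across 10529 genes, which are not independent and share these libraries, hnRNPK enrichment had a Spearman rho of 0.30 with transcript length and 0.23 with runs of C per kb. CBFB enrichment had -0.32 and 0.23. With the number of C in the C-richest window the rho was 0.32 for hnRNPK enrichment and 0.08 for CBFB enrichment. These are descriptions across genes. Whether these features bear on any member was not tested.

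Set beside each other, the comparisons gave EGFR and ERBB3 opposite signs. On the centred scale EGFR was at -1.04 with CBFB and at 1.40 and 1.10 with hnRNPK, while ERBB3 was at -0.63, 0.17 and 0.82. ERBB2 was negative in each, at -1.16, -0.79 and -0.85. AREG was at 0.00, -2.02 and -2.14. The pattern of EGFR and ERBB3, negative with CBFB and positive in both hnRNPK repeats, was shared by 18.9% of analysed genes, and that of ERBB2 by 42.4%. With each RIP set against the input of the other cells, EGFR was at -0.24 with CBFB and 0.45 with hnRNPK. ERBB3 was then at -0.53 and 0.39. The difference between the proteins was not tested, since the FLAG-CBFB RIP was not repeated and the cells, the antibody and the input differ together.

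**Figure D3:**
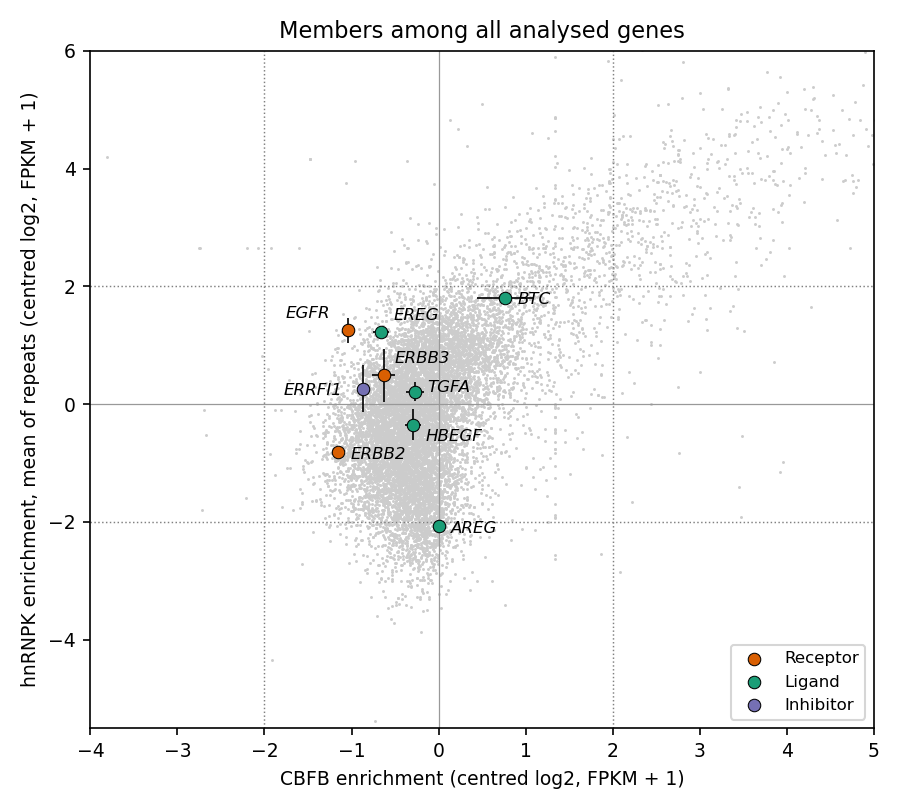
Centred log2 enrichment in the FLAG-CBFB RIP (horizontal axis, bars are 95% counting errors) against the mean of the hnRNPK repeats (vertical axis, bars are SDs of 2 repeats). Grey points are the other analysed genes, 44 of which fall outside the axes, and dotted lines mark the thresholds of 2 and -2. EGFR lies at the upper left, ERBB2 at the lower left and AREG at the bottom on the -2 line, and EREG and BTC are held up by the lowest values the scale allows.

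The make-up of the family within a library, which needs no centring between libraries, differed between the RIPs. AREG was 3.33 times EGFR in the FLAG-CBFB cell input and 7.33 times in the RIP from those cells, by FPKM. In parental cells it was 4.15 times EGFR in the input but 0.333 and 0.374 times after hnRNPK precipitation. ERBB2 was 0.574 and 0.669 times EGFR in the inputs, 0.489 times with CBFB, and 0.0864 and 0.0955 times with hnRNPK. The 5 ligands together had 2.39 and 2.57 times the FPKM of the 3 receptors in the inputs, 5.12 times with CBFB, and 0.485 and 0.428 times with hnRNPK. The share of EGFR in receptor FPKM was 50.7% in the parental input against 86.1% and 77.6% in the hnRNPK RIPs. The share of AREG in ligand FPKM was 81.8% against 59.1% and 67.8%. The hnRNPK repeats lay closer to each other than either did to the parental input in each of these ratios, but for the AREG share the gap between repeats was not much smaller than that of repeat 2 to the input.

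ERBB3 over EGFR behaved less evenly. It was 0.302 in the parental input, 0.0747 in hnRNPK repeat 1 and 0.193 in repeat 2, so the repeats differed from each other by more than repeat 2 did from the input. ERRFI1 over EGFR was 1.96 in the parental input against 1.07 and 0.872 in the repeats. HBEGF over EGFR went from 0.59 to 0.146 and 0.116, and TGFA over EGFR from 0.242 to 0.0615 and 0.0482. Every other member was lower relative to EGFR in both hnRNPK RIPs than in the parental input.

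The genes most like a receptor over the 3 centred enrichments were sought among 9374 genes with a known symbol and at least 50 counts in every library. For EGFR this was ZBED6, at a distance of 0.15, with a CBFB enrichment of -1.18 and hnRNPK enrichments of 1.38 and 1.15. ZBED6 lies within another gene, so its counts may be shared. For ERBB2 it was AP3D1, at 0.07, with -1.15, -0.73 and -0.81. For ERBB3 it was CENPJ, at 0.17, with -0.73, 0.06 and 0.73. Likeness over 3 values of few libraries carries nothing on function.

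The rest of the EGF receptor pathway was read from 6 lists of 52 genes, of which 46 were analysed and 51 tested. By edgeR 19 were higher in the hnRNPK RIP, 4 were lower and 28 were not called, where 21.7% of all genes tested were higher and 15.2% lower, and the median log2 fold change was 0.31, against -0.13 over all genes tested. In the FLAG-CBFB RIP 2 of the 46 analysed genes were above 2, ARAF at 2.33 and SPRED2 at 2.73, a share like the 4.37% of all analysed genes, and none was below -2. The lists are small, and no difference between a list and other genes was tested.

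Regulators that turn the receptors and their cascade down included the largest fold change of the lists. Of 14 genes 7 were higher and 3 lower, where 21.7% of all genes tested were higher and 15.2% lower. SPRED2, an inhibitor of the MAP kinase cascade, had the highest centred hnRNPK enrichment of its list, with 13 FPKM in the parental input against 30.3 and 23.1 in the RIPs. Its edgeR log2 fold change was 4.75 (SE 0.43, adjusted p = 1.6e-26). Unlike every member of the receptor and ligand family, its FPKM was above input in both RIPs. SPRY4, a Sprouty inhibitor of receptor signalling, had 10.8, 12 and 10.4 FPKM, and a log2 fold change of 3.83. The ubiquitin ligases CBL, CBLB and CBLC, which mark activated EGFR for degradation, were higher by 1.83, 2.89 and 4.09. CBLC had 21.5 FPKM in the input and 30.7 and 22.6 in the RIPs. SPRY1 and RNF41, a ligase that acts on ERBB3, were higher by 1.73 and 2.28. Against both inputs as 1 group SPRY1 was not called (1.14, edgeR adjusted p = 0.079), which left 6 of the 14 higher. Of all genes tested in that fit 17.5% were higher. DUSP6, an ERK phosphatase and the lowest of the list on the centred FPKM scale, had 72.1, 2.82 and 2.43 FPKM and a log2 fold change of -0.87 (edgeR adjusted p = 0.037). LRIG1, which lowers receptor levels, was at -1.12 and USP8, a deubiquitinase of endocytosed receptors, at -0.90, with edgeR adjusted p-values of 0.034 and 0.038.

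Of 8 adaptors and phosphatases 5 were higher and none lower, where 21.7% of all genes tested were higher and 15.2% lower. GAB1, a docking protein, had 2.69 FPKM in the input and 0.95 and 0.84 in the RIPs, with the highest centred enrichment among the analysed genes of the list at 1.68 ± 0.01 (SD, n = 2) and an edgeR log2 fold change of 2.60. SOS1, an exchange factor for RAS, GAB2, SOS2 and GRB2 were higher by 2.87, 2.61, 1.19 and 0.97. On the centred FPKM scale GRB2 was negative in both repeats, at -0.65 and -0.60. Its mean transcript length went from 1643 nt in the parental input to 2952 and 2351 nt in the RIPs. PTPN11, the SHP2 phosphatase, was lowest on the centred scale at -0.91 ± 0.12 and was not called. Against both inputs as 1 group 3 of the 8 were higher, against 17.5% of all genes tested in that fit. SOS2 and GRB2 were not called there, at 0.48 and 0.84 (edgeR adjusted p = 0.39 and 0.057).

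In the RAS and MAP kinase cascade 4 of 10 were higher and none lower, where 21.7% of all genes tested were higher and 15.2% lower. MAPK3, which encodes ERK1, had 19, 12.9 and 8.36 FPKM and a log2 fold change of 2.70, and ARAF, BRAF and NRAS were higher by 2.84, 2.28 and 2.0. HRAS was lowest on the centred scale at -1.80 ± 0.37 (SD, n = 2), with 138, 4.44 and 6.43 FPKM, and was not called by edgeR (adjusted p = 0.093).

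The other lists held 1 or 2 calls each, where 21.7% of all genes tested were higher and 15.2% lower. Of 7 PI3 kinase genes, PIK3R2, a regulatory subunit, was higher by 2.15 and PIK3CB, a catalytic subunit, lower at -0.98. Of 6 sheddases and regulators ADAM12 was higher, by 3.07, with an FPKM under 1 in the parental input and both RIPs. ADAM17, the main protease that releases AREG, TGFA and HBEGF, was at 8.4, 0.79 and 0.37 FPKM with a log2 fold change of -0.11 (SE 0.37), and ADAM9 at 44, 3.11 and 1.66 FPKM. Of 6 further receptors and ligands tested, NRG4, a ligand of ERBB4, was higher by 3.03 (SE 0.48, edgeR adjusted p = 4.7e-09). NRG2 had the highest centred enrichment among the analysed genes of the list at 2.32 but only 0.48 FPKM in the input, and was not called (edgeR adjusted p = 0.22). EPGN, a ligand gene of the chromosome 4 cluster, had 45.7 FPKM in the input and 2.49 and 2.42 in the RIPs and was not called, with a log2 fold change of -0.17 (SE 0.38), where AREG of the same cluster was at -1.25. That difference was not tested.

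**Figure D4:**
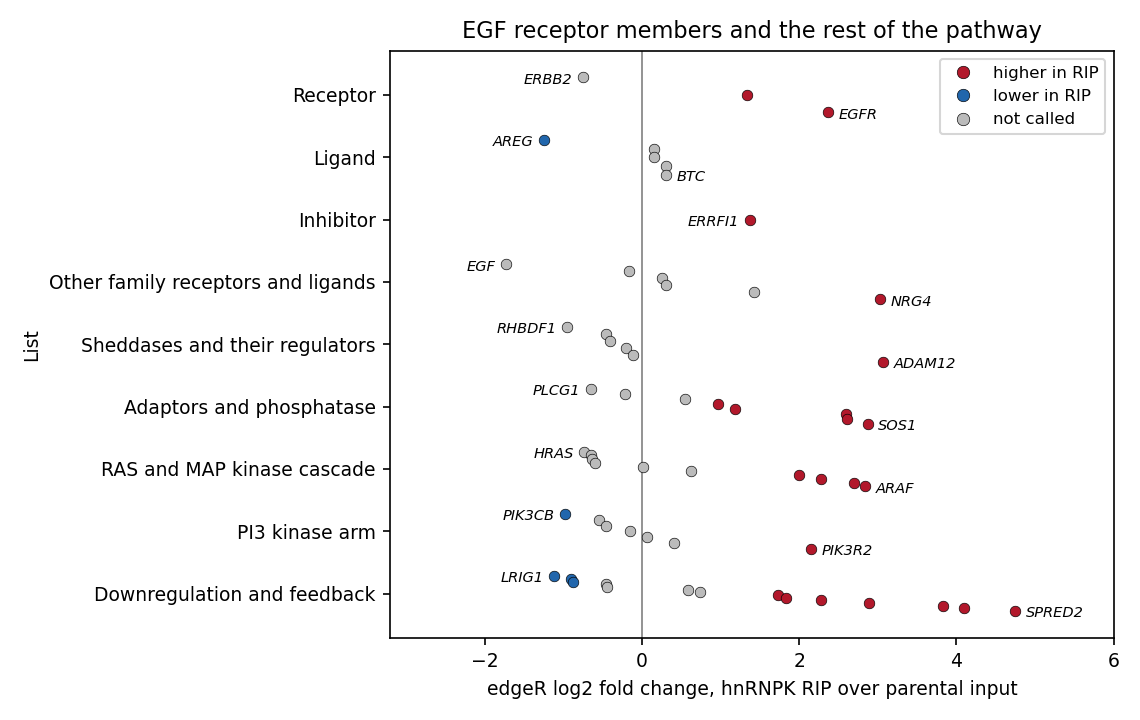
Log2 fold change of hnRNPK RIP over parental input from edgeR for the 9 members (upper 3 rows) and the 51 tested genes of the 6 pathway lists. Each point is 1 gene, red where higher and blue where lower at an adjusted p under 0.05, and the end genes of each row are named. EGFR is at 2.37 and ERRFI1 at 1.37, while SPRED2 of the feedback list reaches 4.75.

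As references for scale, RUNX1 had an edgeR log2 fold change of 4.68 in the hnRNPK RIP and GAPDH -1.57. EGFR thus lay between them. The transcripts of the precipitated proteins, CBFB and HNRNPK, were at 0.13 and -1.45.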

How the data were processed

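The 9 members and the pathway lists were chosen with earlier results of these data known. Per the labels, Trizol RNA was column-purified and sequenced from TruSeq mRNA libraries. The submitters' processing notes name Trimmomatic, STAR, RSEM and hg19. The annotation release is not given in the sources used here. The deposited expected counts are RSEM estimates by the authors, which need not be whole. The deposited FPKM values, also from the authors' RSEM run, divide these estimates by effective length and library total. The deposited TPM values were not used, and the transcript lengths are those in the tables.

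Gene names came from GENCODE 29 or a name table for 51497 of 56632 identifiers, and sequences from GENCODE 29 transcripts. Of 5 markers of other cell types PECAM1 was not matched and is not analysed here. Enrichment used log2(FPKM + 1), centred on the mean over genes averaging an FPKM of at least 1. Fold changes on that scale understate the change of low genes. Rounded expected counts were tested with edgeR 4.0.16 (quasi-likelihood, TMM, at least 10 counts in at least 1 of 3 libraries, Benjamini-Hochberg at 0.05) in R 4.3.3, with 1 residual degree of freedom from the repeats. In data simulated for this comparison with 15990 genes it recovered 29 of 50 genes changed 2-fold and 50 of 50 changed 4-fold, with 9 false calls. Each simulated gene had the same relative spread beyond counting error, and only well-counted genes were changed, as often up as down. Unchanged genes kept equal shares in RIP and input, unlike the mitochondrial genes here. These figures therefore do not give the performance of the test on these libraries. Alternatives were DESeq2 1.42.0, other scalings, pseudocounts, filters, inputs and thresholds, and leaving out a repeat. Counting errors are 95% Poisson errors and cover counting error only, as no molecular identifiers were used. A floor of 3 counts was 0.0281 to 0.043 CPM.

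Named genes were all members, the highest and lowest of each list by hnRNPK enrichment, the gene most like each receptor, and RUNX1, GAPDH, CBFB and HNRNPK. Other pathway genes called by a test were named after their values were seen. The lowest gene of 1 list is not reported here.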

Additional observations from a re-analysis of the deposited data

Results flagged for a closer look

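Members whose sign with CBFB was opposite to that in both hnRNPK repeats on the centred log2(FPKM + 1) scale were EGFR, ERBB3, EREG and TGFA. EGFR was at -1.04 with CBFB and at 1.40 and 1.10 with hnRNPK. ERBB3 was at -0.63 and at 0.17 and 0.82. EREG was at -0.66 and at 1.26 and 1.18, where 0.99 was the lowest hnRNPK value its level allowed. TGFA was at -0.27 and at 0.33 and 0.10. The difference was not tested, since the FLAG-CBFB RIP has 1 library, and 18.9% of analysed genes had this pattern. With TMM scaling of counts EGFR was at -0.74 and 2.21 and ERBB3 at -0.77 and 1.13, while EREG was at -0.57 and -0.06 and TGFA at 0.00 and 0.14. With each RIP set against the input of the other cells, EGFR was at -0.24 and 0.45 and ERBB3 at -0.53 and 0.39. EREG was then at 1.80 and -1.24 and TGFA at 0.20 and -0.25, the reverse of their signs above.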

How the results depend on the processing

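No paired analysis was possible because each input and the FLAG-CBFB RIP carry a single replicate number. The median CBFB enrichment of the 9 members (-0.63) was -1.97 with no centring, -0.44 centred on the median gene, -2.51 with libraries scaled to an equal arithmetic mean, -1.65 over all genes, -0.14 with the other input, -0.52 with TMM and -0.49 with DESeq2 size factors. Members below -2 with CBFB (0) became 3 with no centring, 8 at an equal mean, 2 over all genes and 2 at a 2-fold threshold. The median hnRNPK enrichment (0.26) was -2.38 with no centring, 0.08 without mitochondrial genes, -2.71 at an equal mean, -1.78 over all genes, 0.72 for a mean FPKM of at least 5, -0.25 with the other input, -0.04 with TMM, 0.00 with no pseudocount (chosen after seeing the data), and 0.10 to 0.33 with either repeat alone. Members above 2 with hnRNPK (0) became 1 without mitochondrial genes, with TMM, with DESeq2 size factors and with no pseudocount (EGFR), 1 at a mean FPKM of at least 5 (BTC), and 3 at a 2-fold threshold. Members below -2 (1, AREG) became 0 with a pseudocount of 0.1, centring on the median, no mitochondrial genes, a mean FPKM of at least 5, TMM, DESeq2 size factors or no pseudocount, 6 with no centring, 7 at an equal mean and 3 over all genes. By edgeR, members lower (1) became 2 with no filter and 2 with both inputs as 1 group. In the fit with both inputs 12.5% of all genes tested were lower. Leaving out a repeat, with both inputs as 1 group to give the spread, left 1 higher (EGFR), 0 lower and 1 in all each time. Fold changes turned sign only for ligands that were not called: with no filter EREG (-0.07) and HBEGF (-0.07), with both inputs EREG (-2.02), TGFA (-0.03) and BTC (-0.38), and without a repeat EREG (-2.46 to -1.69), HBEGF (-0.30), TGFA (-0.26) and BTC (-1.44). The cause of these shifts was not tested. Depth limits BTC, with 5 to 20 counts in the hnRNPK RIPs, and EREG, with 44 to 96.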
